A study of Homo sapiens with 6 samples.

Results

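The clustered histone genes are the genes of the linker histone H1 and the core histones H2A, H2B, H3 and H4 that lie together on human chromosomes 6 and 1. They were chosen by symbol alone (H1-1 to H1-6 and the symbols that begin with H2AC, H2BC, H3C or H4C), and 12 pseudogene symbols were dropped, which left 66 genes of the 60662 with a value. By family they comprise 6 H1, 16 H2A, 17 H2B, 13 H3 and 14 H4 genes. The cells were HCT116, an established human colorectal carcinoma line, stably transduced by lentivirus with a control short hairpin RNA (shCtrl) or with GMDS-AS1 shRNA2, which targets the long noncoding RNA GMDS-AS1 (GMDS-AS1 KD). Each group had 3 poly-A selected RNA libraries, labelled as biological replicates. The comparison was KD against shCtrl in 1 cell line with 1 hairpin, and an effect of the hairpin's sequence cannot be told apart from loss of its target. The labels do not say whether the replicates were separate transductions, so the p-values measure the spread between these libraries.

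Histone proteins wrap DNA into nucleosomes, and a cell needs a new set of them each time it copies its genome. The clustered genes supply that set during S phase, and unlike nearly all other messenger RNAs their main transcripts end in a conserved stem-loop, bound by SLBP, instead of a poly-A tail. The genes can also give transcripts that read past the stem-loop and are polyadenylated. Poly-A selection retains RNA with a tail, so the levels given here are of the clustered histone RNA that passed that selection, not of all of it.

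The stem-loop is shown first because it is the shared feature of these transcripts that bears on poly-A selection. Among 16-base words whose arms of 6 bases pair with each other, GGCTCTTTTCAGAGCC was held by the most members, and it was taken as the query. A search of GENCODE v29 coding transcripts for it with up to 3 mismatches over its 16 bases matched 28 of the 66 genes, 15 of them without a mismatch. The same search matched 577 of 19684 protein-coding genes (2.93%), and as the query came from the members the larger share among them is a description. Of the other members, 36 had coding transcripts with no match, many of them annotated as the coding sequence alone, and 2 had no coding transcript in that release. The sites below are those of 4 called members and of H2AX, a histone gene outside the clusters, with the stem-loop in capitals and coordinates on GRCh38.
H2AC6, chr6:26124664-26124690, forward strand: ccaaaGGCTCTTTTCAGAGCCccccta
H2BC5, chr6:26158582-26158608, forward strand: ccaaaGGCTCTTTTAAGAGCCacgcat
H3C10, chr6:27810511-27810537, forward strand: ccaaaGGCTCTTTTCAGAGCCacccac
H4C14, chr1:149833027-149833053, forward strand: ccaaaGGCCCTTTTTAGGGCCgaccac
H2AX, chr11:119094892-119094918, reverse strand: acaaaGGCCCTTTTAAGGGCCaccacc

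H2AC6 and H3C10 carried the searched sequence without a mismatch, H2BC5 with 1 mismatch, and H4C14 and H2AX with 3. Past the stem-loop, the annotated coding transcript of H3C10 ran for another 769 bases, that of H4C14 for 194, and one of H2AC6 for 1114. H2BC5 had a coding transcript that ended 39 bases past the loop and another that lacked it.

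Promoters were read from RefSeq on GRCh38.p14, from 250 bases before to 50 after the gene start, for the 61 members that matched the table, and each motif was searched on both strands. The octamer ATTTGCAT, the sequence that POU2F1 (OCT1) binds in H2B promoters, was held by 42.6% of the member promoters against 1.8% of all 27305 promoters. It stood in 14 of 17 H2B and 11 of 15 H2A promoters, in 1 of 11 H3 promoters, and in none of 6 H1 and 12 H4 promoters. These are counts of promoters, not of separate sites. Most of the H2A sites are the same bases as the site of an H2B gene that starts nearby on the other strand. The H3 promoter, that of H3C4, held the site of H2AC7 and H2BC7 (chr6:26199394-26199423). The CCAAT box was present in 85.2% of member promoters (35.7% of all) but in 3 of 12 H4 promoters, and TATAAA in 67.2% (12% of all). The octamer sites of the most abundant member and of 2 divergent gene pairs are shown with the octamer in capitals, read on the strand of the H2B gene.
H2BC12, chr6:27146886-27146915, reverse strand: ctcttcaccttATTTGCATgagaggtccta
H2BC4 and H2AC6, chr6:26124031-26124060, reverse strand: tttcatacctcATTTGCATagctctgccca
H2BC11 and H2AC11, chr6:27132824-27132853, reverse strand: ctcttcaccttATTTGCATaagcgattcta

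The octamer lay 46 bases before the start of H2BC12. H2BC5, the second most abundant member, had no exact match in its window.

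The authors deposited TPM, a level that accounts for transcript length and library total, and no read totals, so the depth of the libraries is unknown. Across the 16901 genes tested, which do not stand for independent replicates, Pearson's r of scaled log2 values was 0.985 to 0.987 within groups and 0.956 to 0.958 between them. GMDS-AS1, listed as GMDS-DT, had 1.66, 2.21 and 1.34 TPM in shCtrl and 0.88, 0.91 and 0.79 TPM in KD (log2 fold change -0.41, limma, adjusted p = 0.0407). Epithelial markers were present in every library, with a summed level of 9614 to 10068 TPM in shCtrl and 3785 to 3904 TPM in KD. The 10 markers of blood, endothelium and fibroblasts summed to 28.2 to 29.6 TPM and 32.3 to 33.5 TPM, and PTPRC was listed at 0 in all 6 libraries. In bulk RNA, a change in the share of cells in S phase and a change in histone RNA per cell cannot be told apart.

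Few clustered histone genes were abundant in this poly-A selected RNA, and they did not move as 1 group. Of the 66 genes, 16 were listed at 0 in all 6 libraries and 35 reached the level needed for testing, at least 0.5 TPM in at least 3 libraries. Genes were compared with limma on log2(TPM + 1) after trimmed mean scaling, with Benjamini-Hochberg adjustment over all 16901 genes, and on this scale the change of low genes is understated. At an adjusted p under 0.05, 7 of the 35 tested members rose in the KD libraries (20%, against 28.5% of all genes) and 3 fell (8.57%, against 25.9%). The 10 called compare with 54.3% of all genes called in either direction, and the other 25 members did not pass the test. The median log2 fold change of the 35 was 0.074 on the scaled log2 scale, beside -0.002 for all genes. No member rose by at least 2-fold at that threshold (2.93% of all genes did) and 2 fell by as much (4.24% of all genes). The TPM groups did not overlap in 6 tested members with KD above (17.1%, against 18.8% of all genes) and in 5 with KD below (14.3%, against 44.9%). The counts of calls depend on the scaling. With TPM as deposited, 4 members rose (11.4%, against 16.3% of all genes) and 5 fell (14.3%, against 40.3%), and the medians were -0.086 for the members and -0.20 for all genes tested, because the scaling factors were lower in KD by 0.25 on the log2 scale.

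**Figure D1:**
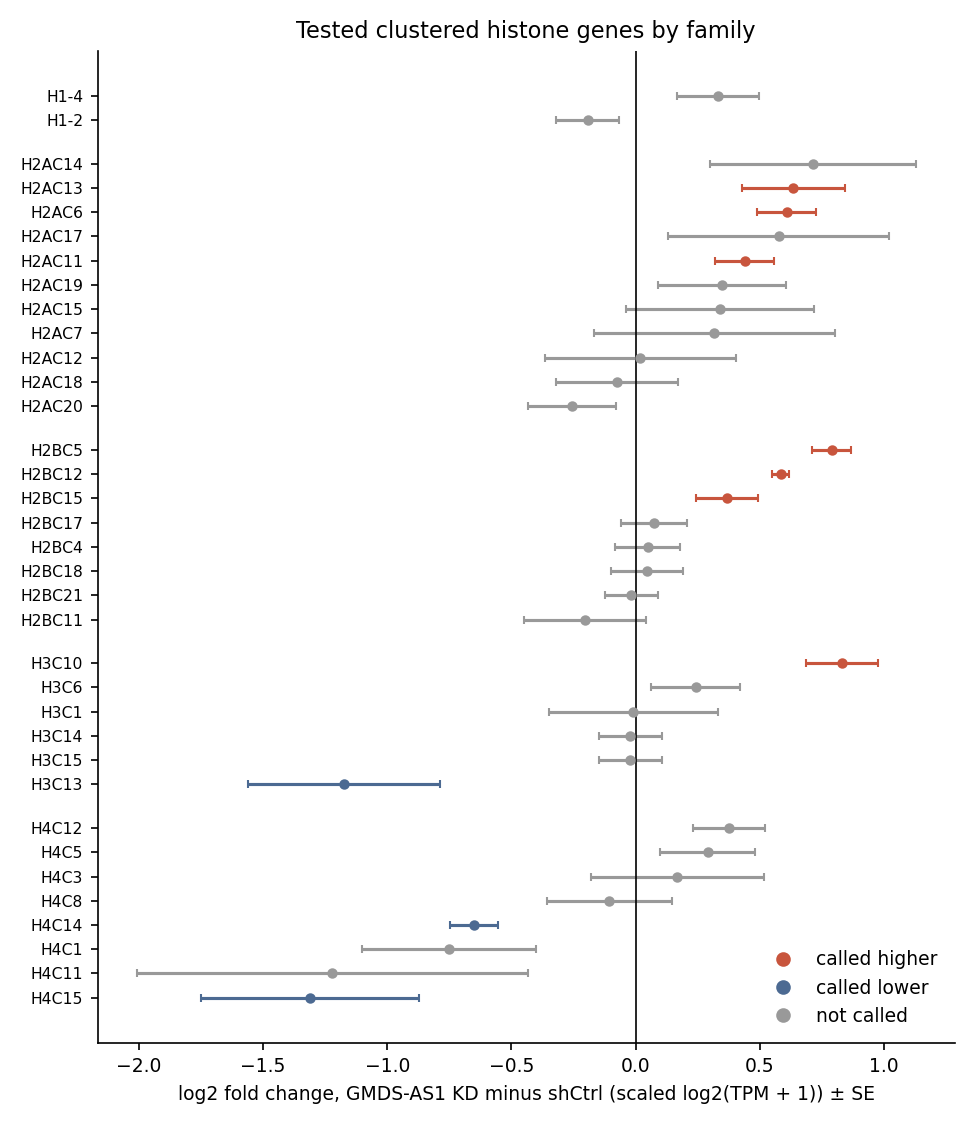
Log2 fold change (GMDS-AS1 KD minus shCtrl, on scaled log2(TPM + 1)) with its standard error for the 35 tested clustered histone genes, grouped by family, 3 libraries per group. Members called higher (red) lie in the H2A, H2B and H3 families, members called lower (blue) in H3 and H4, and 25 are not called (grey).

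The H2B genes supplied the largest part of the clustered histone RNA and held the members with the steadiest rise. H2BC12 (chr6:27146418-27146798, reverse strand) was the most abundant member, with 27% of the summed TPM of all 66 genes. It had 68.8, 69.3 and 68.8 TPM in shCtrl and 84.6, 87.8 and 90.4 TPM in KD. Every KD library was above every shCtrl library, as it was for 18.8% of all genes tested, and the spread within each group was small. The log2 fold change was 0.58 ± 0.03 (SE, n = 3 per group, limma, adjusted p = 1.55e-05). H2BC5 (chr6:26158146-26171349, forward strand) had 34.8, 28.5 and 28.7 TPM in shCtrl and 45.9, 45.7 and 43.8 TPM in KD, again without overlap. It rose by 0.79 ± 0.08 on the log2 scale (limma, adjusted p = 0.000189). H2BC15 was far lower, with 2.74, 2.91 and 2.70 TPM in shCtrl and 3.16, 2.75 and 4.08 TPM in KD. Its groups overlapped, and its call was close to the threshold (log2 fold change 0.37, limma, adjusted p = 0.0429).

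Of the 8 tested H2B genes, 3 rose and none fell, beside 28.5% and 25.9% of all genes. The other 5 did not pass the test. H2BC4, the next in level, had 6.92, 5.13 and 7.06 TPM in shCtrl and 6.0, 5.61 and 5.04 TPM in KD, which overlapped. The rest had means of 1.15 to 2.36 TPM over the 6 libraries (H2BC18, H2BC21, H2BC17 and H2BC11), with log2 fold changes from -0.20 to 0.07.

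Among the 11 tested H2A genes, 3 rose and none fell. The share that rose was close to the 28.5% of all genes that did, and 25.9% of all genes fell. H2AC6 (chr6:26124145-26139116, forward strand) had 24.8, 22.8 and 23.0 TPM in shCtrl and 25.2, 32.5 and 35.3 TPM in KD. The KD libraries were all above the shCtrl libraries, although KD library 1 exceeded the highest of them only slightly. The log2 fold change was 0.61 ± 0.12 (SE, limma, adjusted p = 0.00456). H2AC11 and H2AC13 were low genes that rose by 0.44 and 0.63 on the log2 scale (limma, adjusted p = 0.0187 and 0.0369). H2AC11 went from 0.70 to 1.11 TPM in shCtrl to 1.25 to 1.44 TPM in KD, and H2AC13 from 0.22 to 1.01 TPM to 1.18 to 1.70 TPM. Neither gene's groups overlapped, but both lay near the filter on low values, and H2AC13 shares much of its sequence with H2AC14. The sum of H2AC13 and H2AC14 was 4.44, 1.97 and 2.37 TPM in shCtrl and 6.77, 4.28 and 3.64 TPM in KD, which overlapped (log2 fold change 0.79 ± 0.28, SE, limma, adjusted p = 0.046).

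**Figure D2:**
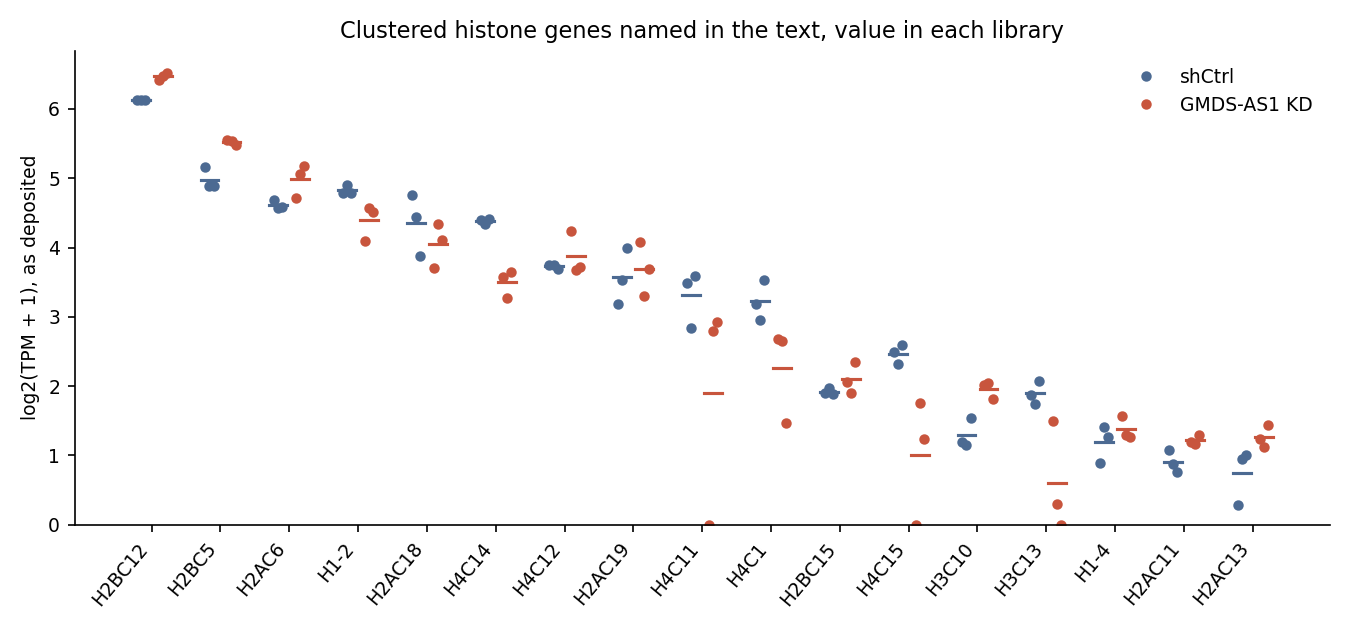
Deposited values as log2(TPM + 1) of the 17 clustered histone genes chosen by level or change, ordered by mean TPM, with a point per library (blue shCtrl, red GMDS-AS1 KD) and a bar at the mean of the 3 libraries. H2BC12 and H2BC5 stand above shCtrl in every KD library, H4C14 below, and H4C11, H4C15 and H3C13 each have a KD library at 0.

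Some members are near-identical copies of each other, and a read from one cannot be assigned to it with certainty. For each transcript the share of 150-base windows that no other gene holds was counted. It was 0% for H4C14 and 5.4% for H4C15, 27.2% for H4C11 and 0% for H4C12, and 0% for H2AC18 and 3.6% for H2AC19. H3C14 and H3C15 had no window of their own and were listed with the same TPM in every library. H2AC13 held 48.3% of its windows alone and H2AC14 23.1%. For these genes the sum of the pair is the firmer value, and single-gene values are given beside it.

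Of the 8 tested H4 genes 2 fell, a share close to the 25.9% of all genes that did. None rose, while 28.5% of all genes did. The 2 that fell are copies of each other. H4C14 (chr1:149832659-149839767, forward strand) had 19.98, 19.25 and 20.36 TPM in shCtrl and 10.93, 8.70 and 11.55 TPM in KD. No KD library reached a shCtrl library, as for 44.9% of all genes tested when TPM is taken as deposited. H4C14 fell, with a log2 fold change of -0.65 ± 0.10 (SE, limma, adjusted p = 0.00126). Its copy H4C15 had 4.61, 4.01 and 5.01 TPM in shCtrl and 0, 2.39 and 1.36 TPM in KD (log2 fold change -1.31, limma, adjusted p = 0.0403). Added together, H4C14 and H4C15 had 24.6, 23.3 and 25.4 TPM in shCtrl and 10.9, 11.1 and 12.9 TPM in KD. The sum fell by 0.78 ± 0.07 on the log2 scale (limma, adjusted p = 0.000148), and its spread within KD was narrower than that of either gene as a share of its level. H3C14 and H3C15, annotated on the opposite strand across part of H4C14 and H4C15, had 0.87 to 1.28 TPM in shCtrl and 0.74 to 0.98 TPM in KD. The sources used here do not state that strand was used in counting.

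H4C11 and H4C12 showed how the split between copies can move. H4C11 was listed at 10.3, 6.15 and 11.1 TPM in shCtrl and at 0, 5.91 and 6.59 TPM in KD. H4C12 had 12.4, 12.4 and 12.0 TPM in shCtrl and 17.8, 11.8 and 12.2 TPM in KD, so that the library with H4C11 at 0 was the one with H4C12 highest. The sum was 21.4 ± 2.46 TPM in shCtrl and 18.1 ± 0.584 TPM in KD (SD, n = 3), with a log2 fold change of 0.01 on the scaled scale (limma, adjusted p = 0.947). Neither gene passed the test alone (limma, adjusted p = 0.234 and 0.0669). H4C12 passed it without KD library 1 (log2 fold change 0.20, adjusted p = 0.0385) and without KD library 2 (0.47, adjusted p = 0.0472). H4C1, with all its windows its own, had 8.05, 6.77 and 10.6 TPM in shCtrl and 5.41, 5.25 and 1.77 TPM in KD. The H4C1 groups did not overlap, but the gene did not pass the test (log2 fold change -0.75 ± 0.35, SE, limma, adjusted p = 0.113). On TPM as deposited H4C1 passed it (-0.96, adjusted p = 0.0456), and without KD library 3 its log2 fold change was -0.34 (adjusted p = 0.168).

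H2AC18 and H2AC19 divided a steady sum in the same manner. H2AC18 had 26.0, 20.7 and 13.7 TPM in shCtrl and 12.0, 19.2 and 16.3 TPM in KD, while H2AC19 had 8.08, 10.5 and 15.0 TPM and 15.9, 8.83 and 11.9 TPM. Where one copy was high the other was low. Their sum was 34.1, 31.3 and 28.6 TPM in shCtrl and 27.9, 28.1 and 28.2 TPM in KD, with a log2 fold change of 0.09 (limma, adjusted p = 0.262). The sign of the H2AC18 change alone (-0.07) turned without shCtrl library 1 (0.10) and without KD library 1 (0.11), and none of these passed the test.

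Of the 6 tested H3 genes, 1 rose and 1 fell, beside 28.5% and 25.9% of all genes. H3C10 (chr6:27810064-27811300, forward strand) had 1.29, 1.21 and 1.91 TPM in shCtrl and 3.03, 3.14 and 2.53 TPM in KD, without overlap. It rose by 0.83 ± 0.14 on the log2 scale (limma, adjusted p = 0.00265). H3C13 had 2.67, 2.35 and 3.19 TPM in shCtrl and 1.81, 0.23 and 0 TPM in KD (log2 fold change -1.18, limma, adjusted p = 0.0385). Its KD libraries were further apart than its shCtrl libraries. The remaining 4 (H3C6, H3C1, H3C14 and H3C15) had log2 fold changes from -0.02 to 0.24 and did not pass the test.

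The linker histone genes were represented by a single abundant member. H1-2 had 26.7, 28.9 and 26.5 TPM in shCtrl and 16.1, 22.8 and 21.8 TPM in KD. Every KD library was below every shCtrl library as deposited, but after scaling the difference did not pass the test (log2 fold change -0.19 ± 0.13, SE, limma, adjusted p = 0.237). On TPM as deposited it did (-0.43, limma, adjusted p = 0.0217). Without KD library 1, the lowest of the group, the scaled log2 fold change of H1-2 was -0.04 (adjusted p = 0.62). H1-4 had 0.86 to 1.65 TPM in shCtrl and 1.40 to 1.95 TPM in KD (log2 fold change 0.33, limma, adjusted p = 0.133). H1-3 was above 0 in a single KD library (0.26 TPM) and H1-6 in 2 (0.10 TPM in each), and H1-1 and H1-5 were listed at 0 throughout.

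Each library was left out in turn, which leaves 1 group with 2 libraries, and the other alternatives were run with all 6. H2BC12, H2BC5, H2AC6, H3C10 and H4C14 were called under all 13 alternatives, and the other 5 calls were not. H4C15 was lost without shCtrl library 1, 2 or 3 or KD library 3 (limma, adjusted p = 0.0632 to 0.0952), while its log2 fold change there was -1.44 to -1.25. Without KD library 1, in which it was listed at 0, H4C15 kept the call with a smaller log2 fold change of -0.78 (adjusted p = 0.0187). H3C13 was lost without shCtrl library 1, 2 or 3 or KD library 2 or 3 (adjusted p = 0.0671 to 0.107), with log2 fold changes there of -1.25 to -0.86, against -1.66 without KD library 1 (adjusted p = 0.00065). H2AC11 was lost without shCtrl library 2 or 3 or KD library 3 (adjusted p = 0.0519 to 0.0752). Among the libraries left out, H2AC13 kept its call only without shCtrl library 3 (adjusted p = 0.0359), and its log2 fold change was 0.40 without shCtrl library 1 (adjusted p = 0.0667). H2BC15 kept its call only without KD library 2 (adjusted p = 0.0234). Over the 13 alternatives the log2 fold change of H2BC12 ranged from 0.34 to 0.62, that of H2BC5 from 0.55 to 0.86, and that of H4C14 from -0.88 to -0.54.

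Shares of the summed TPM of the 66 genes do not depend on the scaling between libraries, and they shifted from H4 and H1 to H2B. As deposited, the sum itself was 294, 279 and 282 TPM in shCtrl and 288, 302 and 297 TPM in KD. Its groups overlapped. Unlike the shares, the sum depends on the scaling. The factors were lower in KD (mean log2 factor, KD minus shCtrl, -0.25), so scaling would raise the KD sums relative to shCtrl. A scaled sum was not computed. H2B genes made up 41.6%, 41.1% and 42.1% of the summed TPM in shCtrl and 51.3%, 49.9% and 50.8% in KD. H4 genes made up 20.6%, 18.4% and 22.3% in shCtrl and 13.4%, 13.1% and 12.3% in KD. Both shifts exceeded the spread between libraries, with no overlap between the groups. The H1 share went from 10.1% ± 0.812 to 7.42% ± 0.890 (SD, n = 3), also without overlap. The H2A share (24.4% ± 2.24 and 25.6% ± 0.402) and the H3 share (3.55% ± 0.417 and 3.37% ± 0.471) overlapped. Few genes carry these shares, since 10 members held 82% of the summed TPM, and H2BC12 alone went from 24.2% ± 0.772 to 29.6% ± 0.701.

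**Figure D3:**
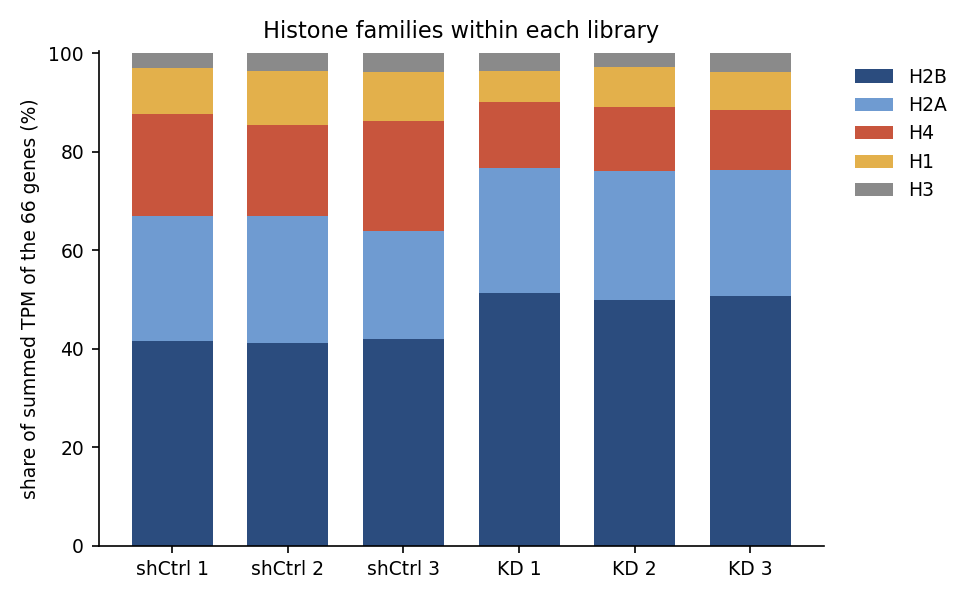
Share of the summed TPM of the 66 clustered histone genes taken by each family in each library, in percent, stacked to 100. The H2B share is 41.1% to 42.1% in the shCtrl libraries and 49.9% to 51.3% in the KD libraries, and the H4 share is 18.4% to 22.3% and 12.3% to 13.4%.

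After trimmed mean scaling, the members that fell and those that rose lay on different chromosomes. Within its chromosome, each of these shares was close to that of all genes. GENCODE v29 placed 53 members on chromosome 6 and 11 on chromosome 1, and 2 had no position there (H3C2 and H3C3). All 7 members that rose were among the 25 tested on chromosome 6 (28%, against 28.5% of all genes), and all 3 that fell (H4C14, H4C15 and H3C13) were among the 10 tested on chromosome 1 (30%, against 25.9% of all genes). With TPM as deposited this did not hold, since H1-2 and H4C1 on chromosome 6 were then also called lower. Because H4C14 and H4C15 share nearly all their windows, the falls of these 2 are not independent of each other. H3C13 held 87.4% of its windows alone. Of the 3 falls, only H4C14 was called under all 13 alternatives, while H4C15 passed the test in 6 of them and H3C13 in 5. The chromosome 1 genes took 24.2% ± 0.698 of the summed TPM in shCtrl and 16.4% ± 0.414 in KD (SD, n = 3), without overlap. Other chromosome 1 members, H2BC18, H2BC21 and H2AC20, did not pass the test (log2 fold changes 0.04, -0.02 and -0.26). The difference between the chromosomes was not tested.

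Several H2A and H2B genes start head to head, close to each other, and a call in one partner was not always matched by a call in the other. H2AC6 rose. H2BC4, which starts 218 bases away on the other strand and shares the octamer site shown above, showed a log2 fold change of 0.05 ± 0.13 (SE, limma, adjusted p = 0.777). H2BC12 rose, and H2AC12, with 330 bases between the starts, showed a log2 fold change of 0.02 ± 0.38 (adjusted p = 0.973) at 1.17 TPM. H2AC11 rose, and H2BC11 showed a log2 fold change of -0.20 ± 0.25 (adjusted p = 0.517). In none of these pairs was the difference between the partners tested. Starts were taken from GENCODE v29, where some of these models hold the coding sequence alone.

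Members were also set side by side by their annotated 3' ends. In 23 members with a stem-loop match, a coding transcript ran more than 50 bases past it or another coding transcript lacked it, 3 of these were at 0 in every library, 15 were tested, 5 rose and 2 fell. The 7 called were H2BC5, H2AC6, H3C10, H2AC11, H2BC15, H4C14 and H4C15. Among all genes tested, 54.3% were called, 28.5% higher and 25.9% lower. The classes are small, and their counts were not tested against those shares. In 5 members the annotated transcripts ended within 50 bases of the stem-loop, 4 were tested and 1 rose, H2AC13. The 36 members whose coding transcripts held no match included 12 at 0 in every library and 16 tested, of which H2BC12 rose and H3C13 fell. Median levels over the 6 libraries were 0.995, 6.66 and 0.358 TPM in the 3 classes. Since many models in the last class stop at the coding sequence, it does not say that these RNAs lack a stem-loop.

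Most members were low. Of the 66, 25 never reached 0.5 TPM in any library, and 35 were above 0 in all 6. Among the pseudogenes that were left out, 5 of 12 were above 0 in some library and 2 were tested, H2BC19P and H2BC20P, neither of which passed the test (limma, adjusted p = 0.646 and 0.288).

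Histone genes that the symbols do not cover included larger changes. These are mostly variants that are also made outside S phase and carry poly-A tails, but H2AX and H2AW, which rose most, hold a stem-loop match. Of the 14 tested 6 rose (42.9%, against 28.5% of all genes) and 4 fell (28.6%, against 25.9%). H2AX, the H2A form that is phosphorylated at DNA breaks, had 22.5, 23.9 and 23.2 TPM in shCtrl and 90.6, 84.3 and 86.6 TPM in KD. It rose by 2.11 ± 0.04 on the log2 scale (SE, limma, adjusted p = 2.93e-07). H2AX can give both a stem-loop RNA and a polyadenylated RNA, and its annotated coding transcript runs 1044 bases past the stem-loop shown above. H2AW, from a small histone cluster elsewhere on chromosome 1, had 24.4, 23.8 and 21.2 TPM in shCtrl and 50.2, 48.7 and 51.3 TPM in KD. H2AW rose by 1.32 ± 0.05 (adjusted p = 2.93e-06), and its transcript runs 390 bases past a stem-loop that matches without mismatch. H2BU1, which starts 233 bases from H2AW on the other strand, showed a log2 fold change of -0.19 (adjusted p = 0.229).

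H2AJ, a further H2A variant, went from 35.9 ± 1.47 to 46.1 ± 0.569 TPM (SD, n = 3) and rose by 0.59 (limma, adjusted p = 4.53e-05). H2AX, H2AW and H2AJ were called higher under all 13 alternatives. The smaller rises of H1-10 (0.41), H3-3A (0.30) and MACROH2A1 (0.11) depend more on scaling, and the deposited TPM of MACROH2A1 was lower in every KD library. With TPM as deposited, 3 of the 14 rose (21.4%, against 16.3% of all genes) and 8 fell (57.1%, against 40.3%).

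Among those that fell, H3-3B, one of the genes of the replacement histone H3.3, went from 1498 ± 34.1 to 855 ± 18.2 TPM (SD, n = 3; log2 fold change -0.56, limma, adjusted p = 9.39e-06). CENPA, the centromeric H3 variant, went from 27.4 ± 0.421 to 12.7 ± 0.696 TPM (log2 fold change -0.82, adjusted p = 2.89e-05). H3-5 also fell, by 0.64. H3-3A and H3-3B thus moved in opposite directions after scaling.

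**Figure D4:**
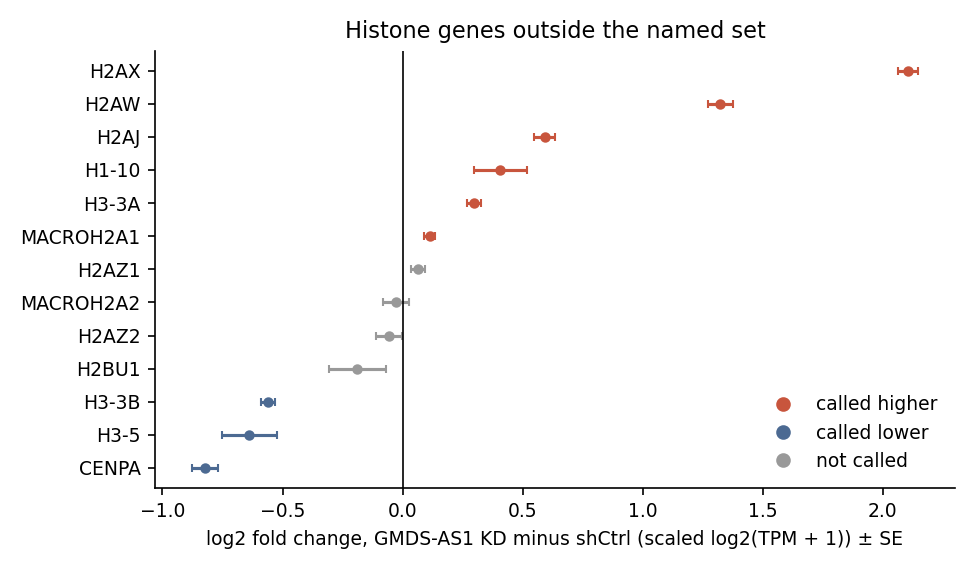
Log2 fold change (GMDS-AS1 KD minus shCtrl, on scaled log2(TPM + 1)) with its standard error for 13 of the tested histone genes not covered by the symbols, 3 libraries per group. H2AX and H2AW lie farthest to the right, at 2.11 and 1.32, and CENPA and H3-5 farthest to the left, at -0.82 and -0.64.

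Genes that process or degrade histone RNA were next compared. Of 26 listed and tested, 14 rose (53.8%, against 28.5% of all genes) and 4 fell (15.4%, against 25.9%), with a median log2 fold change of 0.23. With TPM as deposited 6 rose (23.1%) and 5 fell (19.2%), against 16.3% and 40.3% of all genes. SLBP, which binds the stem-loop, had 53.5, 54.4 and 52.8 TPM in shCtrl and 51.6, 51.5 and 53.2 TPM in KD. The SLBP groups overlapped as deposited, and the rise by 0.20 after scaling (limma, adjusted p = 0.00137) was smaller than the shift that scaling itself made. LSM10, a subunit of the U7 particle that directs cleavage after the stem-loop, rose from 57.1 ± 1.33 to 83.0 ± 1.16 TPM (log2 fold change 0.77, adjusted p = 3.61e-06), while its partner LSM11 showed a log2 fold change of 0.14 (adjusted p = 0.222). SRRT (ARS2), which joins the cap-binding complex to histone RNA processing, rose by 0.92, and ERI1, a nuclease that trims the stem-loop end, by 0.52.

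The 4 that fell act at different steps. LSM1, a subunit of the ring that binds the 3' end of decaying histone RNA, went from 56.2 ± 4.62 to 23.4 ± 1.37 TPM (SD, n = 3; log2 fold change -0.99, limma, adjusted p = 3.54e-05). MIF4GD, a partner of SLBP in translation, went from 25.3 ± 2.17 to 12.8 ± 0.714 TPM (log2 fold change -0.69, adjusted p = 0.000248). CASP8AP2 (FLASH), which joins the U7 particle at histone genes, fell by 0.26, and NCBP1, a cap-binding subunit, by 0.25. The poly-A machinery held 13 genes that rose (72.2%, against 28.5% of all genes) and 2 that fell (11.1%, against 25.9%) of 18. On TPM as deposited these were 7 (38.9%, against 16.3%) and 5 (27.8%, against 40.3%). PAPOLA, a poly-A polymerase, fell by 0.53, while CSTF3, a subunit of the cleavage stimulation factor, rose by 0.84.

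Of 23 tested genes that act in histone gene transcription, 6 rose and 6 fell (26.1% each, against 28.5% and 25.9% of all genes), and with TPM as deposited 2 rose (8.7%) and 10 fell (43.5%), against 16.3% and 40.3% of all genes. NPAT, the coactivator of the clustered genes, had 5.08, 5.47 and 5.15 TPM in shCtrl and 5.69, 4.53 and 4.04 TPM in KD, which overlapped (log2 fold change 0.08, limma, adjusted p = 0.6). CCNE2, a cyclin E gene whose kinase phosphorylates NPAT at S phase entry, had 14.9, 16.5 and 13.4 TPM in shCtrl and 1.00, 1.31 and 1.35 TPM in KD. CCNE2 fell by 2.66 on the log2 scale (adjusted p = 3.37e-06), while CCNE1 had a log2 fold change of 0.11 and did not pass the test. NFYA, a CCAAT-box subunit, went from 18.4 ± 3.67 to 7.81 ± 1.25 TPM (log2 fold change -0.90, adjusted p = 0.00362), and its partner NFYC rose by 0.50. POU2F1, the octamer factor, showed a log2 fold change of -0.02 (adjusted p = 0.893). WEE1, a kinase that limits histone transcription late in S phase, fell by 1.00, and HCFC1, a transcriptional coregulator, rose by 0.67.

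Histone chaperones, which carry histones to and from DNA, held 13 genes that rose and 3 that fell of 25 tested (52% and 12%, against 28.5% and 25.9% of all genes), and with TPM as deposited 9 rose (36%) and 7 fell (28%), against 16.3% and 40.3% of all genes. NAP1L1 rose by 1.06 and MCM2, a helicase subunit that also holds H3 and H4, by 0.87. ASF1B, the H3-H4 chaperone of dividing cells, went from 53.2 ± 1.84 to 16.7 ± 0.767 TPM (SD, n = 3; log2 fold change -1.38, limma, adjusted p = 1.54e-06), and HJURP, the chaperone of CENPA, fell by 0.50. ASF1A, the other ASF1 gene, did not pass the test (log2 fold change -0.13).

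The clustered genes are used in S phase, so the levels of other S phase and mitotic genes are given beside them. Of 45 S phase genes tested, some of which are also in the lists above, 19 rose (42.2%, against 28.5% of all genes) and 11 fell (24.4%, against 25.9%), with a median log2 fold change of 0.09. MCM5 (0.92), MCM2 (0.87) and PCNA (0.68) rose, and CCNE2 (-2.66), RRM2 (-0.92) and CDC6 (-0.73) fell. With upper-quartile scaling 16 S phase genes rose (35.6%, against 23.5% of all genes) and 19 fell (42.2%, against 30.8%). With TPM as deposited 9 rose (20%, against 16.3%) and 24 fell (53.3%, against 40.3%). Of 32 genes of G2 and mitosis, 8 rose (25%, against 28.5% of all genes) and 12 fell (37.5%, against 25.9%), with TPX2 at -1.36 and PRC1 at 0.84. On TPM as deposited 4 rose (12.5%, against 16.3%) and 20 fell (62.5%, against 40.3%). The share of cells in each phase was not measured in these libraries. The paper reported from EdU staining that silencing GMDS-AS1 lowered the percentage of colorectal cancer cells in S phase. Whether that bears on the levels given here was not tested.

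The TPM of RNAs that lack a poly-A tail was summed in each library. Such a sum cannot tell the level of these RNAs in the cells apart from their carry-over through poly-A selection. Of 42 listed, 14 were at 0 in all libraries, and the list summed to 4944, 7026 and 7216 TPM in shCtrl and 3979, 3532 and 3547 TPM in KD, without overlap between the groups. The sum is mostly RN7SL1 and RN7SL2, the RNA of the signal recognition particle. Of the 19 tested, 6 fell (31.6%, against 25.9% of all genes) and 1 rose (5.26%, against 28.5%). Among those that fell were RN7SL1 (log2 fold change -0.69, limma, adjusted p = 0.019) and RN7SK (-0.33, adjusted p = 0.0296). MALAT1, a long noncoding RNA whose 3' end is a triple helix, fell too (-0.63, adjusted p = 0.000112). RNY1, the one that rose, was at 0 in 2 shCtrl libraries, and no gene of this list rose in 9 of the 13 alternatives. The 6 falls became 2 without shCtrl library 2, 3 without shCtrl library 1 or 3 or KD library 2 or 3, and 2 with the filter of above 0 TPM in any library. The H4 and H1 shares of the clustered histone RNA were lower in the same libraries and the H2B share higher. Whether carry-over of RNA without a tail had a part in these shifts was not tested.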

How the data were processed

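Poly-A selected RNA from 3 shCtrl and 3 GMDS-AS1 KD HCT116 libraries was sequenced by the authors, who evaluated expression with Cufflinks and RSEM and named DESeq2 for their own comparison. They deposited TPM per Ensembl gene, which keeps no read total, so the depth per sample is unknown. The submitters' processing notes name Trimmomatic 0.27, TopHat2 2.1.1 and GRCh38.p13, with no role stated. How reads of near-identical genes were assigned is not given in the sources used here.

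A value was read for 60662 genes, and 2 genes with broken lines were left out. A gene was tested if 3 or more libraries reached 0.5 TPM. Scaling factors were trimmed means of log ratios (30% of the ratios and 5% of the means trimmed, unweighted), taken from the TPM. The groups were compared on log2(TPM + 1) in limma 3.58.1 (R 4.3.3), using a variance trend and Benjamini-Hochberg adjustment. Tested on simulated TPM of 16901 genes for this comparison, the fit recovered 41.8% of 67 changes of 1.5-fold, 70.1% of 67 of 2-fold and 87.9% of 66 of 4-fold. Of its 145 calls, 8.28% were unchanged genes. The share of genes changed was far below the 54.3% called in the real libraries, so these rates need not hold for them. Figures and sequence searches used Python 3.11.15.

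The members and gene lists were chosen with earlier results of these data known. Members named were the 10 with the highest mean TPM, up to 10 rises and 10 falls by log2 fold change at an adjusted p under 0.05, and all H1 genes. Genes of the lists of histone RNA processing, transcription and other histones could be named, and from each other list the 3 largest rises and falls. Other members and list genes in the text were chosen after their values were seen. Alternatives covered the scaling, pseudocount, filter, variance trend, replicate block and each library left out. Adding up near-identical members was chosen after seeing the data. Positions, transcripts and stem-loops come from GENCODE v29, and promoters from RefSeq on GRCh38.p14. Protein sequences were not used here. The values of 1 gene are not reported here, although it is part of the counts.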

Additional observations from a re-analysis of the deposited data

How the results depend on the processing

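The number of members that rose (7) was 4 with TPM as deposited and 4 to 7 with a library left out, and the number that fell (3) was 5 as deposited, 1 with a pseudocount of 0.1, with a filter of above 0 TPM in any library or with no variance trend, and 1 to 3 with a library left out. At 2-fold, no rise became 1 with a pseudocount of 0.1 and 0 to 1 with a library left out, and the 2 falls became 0 with a pseudocount of 0.1, with the filter of any value above 0 or with no variance trend, 1 with near-identical members added up, and 0 to 1 with a library left out. The median log2 fold change (0.074) was -0.086 as deposited and 0.037 to 0.26 with a library left out. H2AC18 (-0.07) ranged from -0.32 to 0.11 with a library left out, and turned sign without shCtrl library 1 (0.10) or KD library 1 (0.11). Causes were not tested. Same-numbered libraries did not deviate together (r of their deviations from the group means -0.04 to 0.03). The labels do not say whether they shared a batch or culture. With the replicate block, 10 members were called, 9 of them shared with the fit without it: H2BC15 was lost (adjusted p = 0.072) and H2AC14 gained. For the genes named, 242 of the alternative values stayed on their side of the threshold with their direction, 38 lost the call and 4 gained one. Among counts in the gene lists, 180 stayed within 1.5 times and 28 did not. TPM without read totals sets no counting error, and members under a few TPM are the least certain.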
